A study of Mus musculus with 4 samples.

Results

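A set of 40 genes of glycolysis and the hypoxia response was followed through mouse lung. Members were chosen by symbol, as glycolytic enzymes and glucose or lactate transporters on one side and oxygen sensors, hypoxia-inducible factor (HIF) subunits and hypoxia target genes on the other. All 40 symbols were found among the 23282 rows of the deposited table, and 39 of them passed the count filter, a mean of at least 4 normalized read counts, that 15164 rows passed. The study crossed treadmill exercise at high intensity (E) with tumor (T) in male CDF1 mice, a hybrid strain. The 4 groups were E(-)T(-), resting mice without tumor; E(+)T(-), exercised mice without tumor; E(-)T(+), resting mice given tumor cells; and E(+)T(+), exercised mice given tumor cells. The tumor cells were CT26, a murine colorectal carcinoma line, injected through the tail vein. The labels put all groups at postnatal day 28, which may be the age at the start of the study, and each group held 10 mice. Each group has 1 lung library, which the sources used here do not tie to 1 animal or to a pool. The study took calf muscle from a representative mouse of each group and describes the lung work as similar. No difference between groups therefore has a replicate check.

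Glycolysis splits glucose into pyruvate in the cytosol, and lactate dehydrogenase turns pyruvate into lactate where oxygen is short or where cells divide fast. HIF is a dimer whose alpha subunit, encoded by Hif1a or Epas1, is hydroxylated in the presence of oxygen by the prolyl hydroxylases Egln1 and Egln3 and is then degraded. In low oxygen the alpha subunit persists and binds DNA beside genes for glucose uptake, glycolysis, vessel growth and pH control. The alpha protein is controlled mainly after translation, so the transcript levels given here do not measure HIF activity. In the lung, Epas1 is best known as a gene of endothelial and alveolar type 2 cells.

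Between 9354493 and 13368091 reads per library were recovered from the deposited values, with the fewest in E(-)T(+). Hemoglobin genes took 14.3%, 14.2%, 1.43% and 31.4% of the reads in resting tumor-free, exercised tumor-free, resting tumor-bearing and exercised tumor-bearing lung. Every run of 4 values follows this order. The labelled tissue was checked against lung markers. All 8 alveolar type 2, all 7 alveolar type 1 and all 10 endothelial markers had reads in every library. However, their summed levels in E(-)T(+) stood apart from the other libraries. The endothelial sum was 30790, 33120, 4433 and 29900 normalized counts, and the alveolar type 2 sum was 200200, 233300, 27890 and 161900. The 10 cell division markers went the other way, with sums of 480, 912, 11780 and 3867. Because CT26 cells are murine, their transcripts and those of host cells cannot be told apart in these counts.

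The effect of tumor in resting mice asked how lungs with CT26 cells differed from lungs without them. Of the 39 members, 20 were higher and 5 were lower by 2-fold or more in E(-)T(+) than in E(-)T(-), 64.1% of the members. Among all rows 46.2% were past this limit, 20.6% higher and 25.7% lower. The 8 lower glycolysis members, which run from Gapdh to lactate and include the regulator Pdk1, were all past the 2-fold limit, 7 higher and only Ldhb lower. Glucose transporter Slc2a1, lactate transporter Slc16a1 and the upper glycolysis enzymes Hk2, Gpi1, Aldoa and Tpi1, which act before Gapdh, were higher as well. Hypoxia targets were divided. Car9, Car12, Bnip3, Ndrg1, Ankrd37 and Ddit4 were higher, but Vegfa and Hilpda were lower, together with Epas1 and Pfkfb4. The median log2 difference of the members was 1.10, against -0.03 for all rows. Exact 95% intervals of the read ratio, which cover counting error only, lay above 0 on the log2 scale for 26 members, below 0 for 9 and across 0 for 4. For all rows these shares were 37.6%, 38.5% and 23.9%. Intervals narrow as reads increase. A mean of at least 100 normalized counts was reached by 32 of the 39 members and by 9396 of 15164 rows. Interval shares of members and of all rows are therefore at unlike depth in every comparison. In bulk tissue, fewer cells of a type and less RNA per cell cannot be told apart. All 10 endothelial, all 8 alveolar type 2 and 5 of 7 alveolar type 1 markers were lower in this comparison and all 10 cell division markers were higher. Of the other lists, 10 of 12 neutrophil markers were higher and 11 of 12 erythroid markers were lower. Fibroblast markers were higher in 5 of 8 and lower in 1, and macrophage markers higher in 5 of 11 and lower in 2. The sum of the glycolytic enzymes, taken with the regulators Pfkfb3, Pfkfb4 and Pdk1, differed by 1.81. The fibroblast sum also differed by 1.81 and the cell division sum by 4.62. The part of these cells in the members' differences was not tested.

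In exercised mice the tumor comparison was E(+)T(+) over E(+)T(-). Here 12 members were higher and 3 lower by 2-fold or more, next to 27.8% of all rows past the limit, 14.9% higher and 13% lower. Slc2a3, Slc16a3 and Slc2a1 of the transporters, Hk2 and Gpi1 of the hexose phase, and Gapdh, Pgk1, Pgam1 and Pkm of the triose phase were among those higher. Hif1a, Egln3 and Ddit4 completed the list. P4ha1, Car9 and Car12 were lower, of which Car9 and Car12 rested on 17 reads or fewer in each of these libraries. The median of the members was 0.34 (all rows 0.00), and -0.08 after scaling by library totals only, where that of all rows was -0.41. With the deposited scaling, 24 intervals lay above 0, 7 below and 8 across it, next to 32%, 32.4% and 35.6% of all rows. All 12 neutrophil markers found in the table were higher in this comparison, with sums of 4109, 12510, 12030 and 210700 normalized counts over the 4 libraries. Elane among them had no read in E(-)T(-) and E(+)T(-). All 12 erythroid markers found in the table were higher too, as were 8 of 10 cell division, 6 of 11 macrophage and 4 of 7 skeletal muscle markers. Lower here were 3 of 10 endothelial, 2 of 7 alveolar type 1 and 1 of 8 alveolar type 2 markers, and none of these lists had a marker higher by 2-fold. Of fibroblast markers 2 of 8 were higher and 1 lower. Their sum differed by 0.72 and the cell division sum by 2.085, beside 0.71 for the glycolytic enzymes. The part of these cells in the members' differences was not tested.

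**Figure D1:**
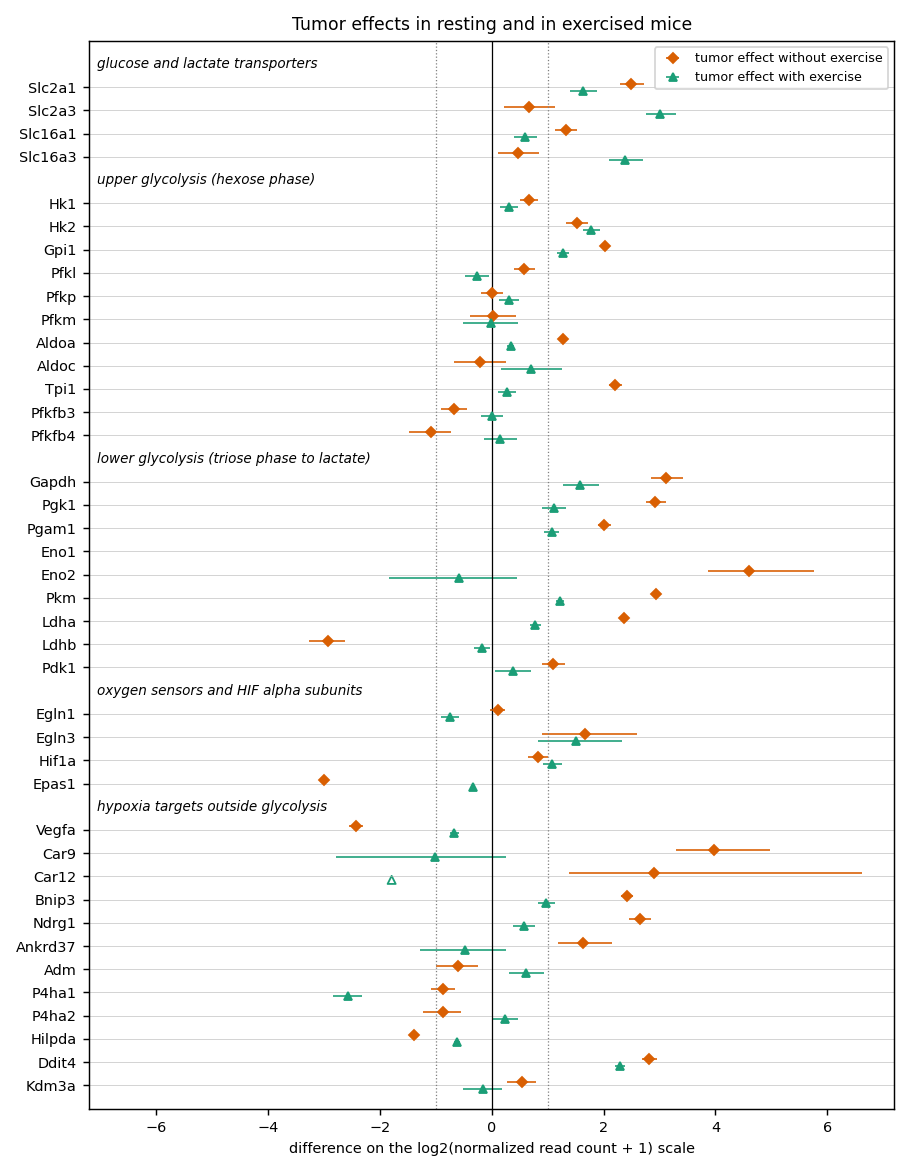
Differences of the log2(normalized read count + 1) values (horizontal axis) for the members by role (vertical axis), for the tumor effect in resting mice (orange diamonds) and in exercised mice (green triangles). Bars are exact 95% intervals of the read ratio for counting error, an open symbol marks an interval without a lower end, and dotted lines mark 2-fold. Most lower glycolysis genes lie right of the 2-fold line in resting mice and closer to 0 in exercised mice, with Ldhb on the left at -2.93.

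The tumor comparisons in resting and in exercised mice share no library. A total of 9 members were higher by 2-fold or more in both, namely Slc2a1, Hk2, Gpi1, Gapdh, Pgk1, Pgam1, Pkm, Egln3 and Ddit4. Among all rows 7.5% had this pattern. After scaling by library totals only, Gpi1 (0.86), Pgk1 (0.70), Pgam1 (0.66) and Pkm (0.81) of these 9 were inside 2-fold in exercised mice. The other 5 had the pattern, as did 5.33% of all rows. Pgam1 was also inside 2-fold in exercised mice with totals without hemoglobin genes (0.98), where 8 members and 6.71% of all rows had the pattern. With the deposited scaling no member was lower in both, a pattern of 7.12% of all rows. With library totals only, Vegfa (-2.32 and -1.08) and Hilpda (-1.28 and -1.04) were, as were 11% of all rows. By the deposited values Car9 and Car12 were past the limit in opposite directions, as were 2.94% of all rows. However, in exercised mice the Car9 interval contained 0 and Car12 was at or under 3 reads in both libraries, and with a pseudocount of 4 only 1 member, P4ha1, was lower there.

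The comparison for exercise without tumor was E(+)T(-) over E(-)T(-). Only Ddit4 and Eno2 were higher by 2-fold or more and no member was lower, among 9.98% of all rows past the limit, 5.28% higher and 4.7% lower. The median was 0.05 (all rows 0.00). Of the 39 intervals, 13 lay above 0, 7 below and 19 across it, next to 22.5%, 21.3% and 56.1% of all rows. At a mean of at least 100 normalized counts, 1 of 32 members was higher and none lower, beside 158 and 42 of 9396 rows. Eno2 was inside 2-fold with a pseudocount of 4 (0.87), with library totals only (0.96) and with totals without hemoglobin genes (0.96). P4ha1 at 0.97 and Slc2a3 at 0.89 were next in size, and Aldoc at -0.79 and Pdk1 at -0.78 were the lowest. Of the 12 neutrophil markers, 8 were higher by 2-fold or more in the same comparison, as were 4 of 10 cell division markers, and 3 of 7 skeletal muscle markers were lower. The fibroblast sum differed by -0.053 and the cell division sum by 0.925, beside 0.083 for the glycolytic enzymes. The part of these cells in the members' differences was not tested.

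Exercise with tumor, E(+)T(+) over E(-)T(+), divided the members in both directions. A total of 10 were higher and 13 lower by 2-fold or more, where 42% of all rows were past the limit, 24.3% higher and 17.7% lower. Those lower were 6 lower glycolysis genes (Gapdh, Pgk1, Eno2, Pkm, Ldha and Pdk1), Tpi1 and the hypoxia targets Car9, Car12, Bnip3, Ndrg1, Ankrd37 and Kdm3a. Those higher were Slc2a3, Slc16a3, Pfkfb4, Ldhb, Epas1, Vegfa, Adm, P4ha2, Hilpda and Ddit4. The median was -0.64 (all rows 0.01), and 14 intervals lay above 0, 23 below and 2 across it, next to 35.3%, 36.6% and 28.1% of all rows. All endothelial and alveolar type 2 markers were higher in this comparison, as were 5 of 7 alveolar type 1, 12 of 12 erythroid (median 5.14) and 11 of 12 neutrophil markers (median 3.86). The other neutrophil marker, Ltf, was lower at -1.40, and 8 of 10 cell division markers were lower too. Of fibroblast markers 3 of 8 were lower and none higher. Their sum differed by -1.14 and the cell division sum by -1.61, beside -1.01 for the summed glycolytic enzymes. Macrophage markers were lower in 5 of 11 and higher in 2, and skeletal muscle markers higher in 5 of 7. Their part in the members' differences was not tested. This comparison shares its E(-)T(+) library with the tumor comparison in resting mice, so a gene that stood out in that library moves in both. Scaling by library totals only shifted the median of all rows to -0.60 and the higher genes were 31.2% of all rows past the limit in place of 57.8%. Of the members, 5 were then higher and 22 lower, beside 2450 and 5409 of 15161 rows. The 9 that became lower were Slc2a1, Slc16a1, Gpi1, Pfkl, Pfkm, Aldoa, Pgam1, Egln1 and P4ha1, at -1.09 to -1.60. For the tumor effect in exercised mice the shift was to -0.41, and the share was 27.8% in place of 53.5%, with 7 members higher and 6 lower beside 1418 and 3684 rows.

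**Figure D2:**
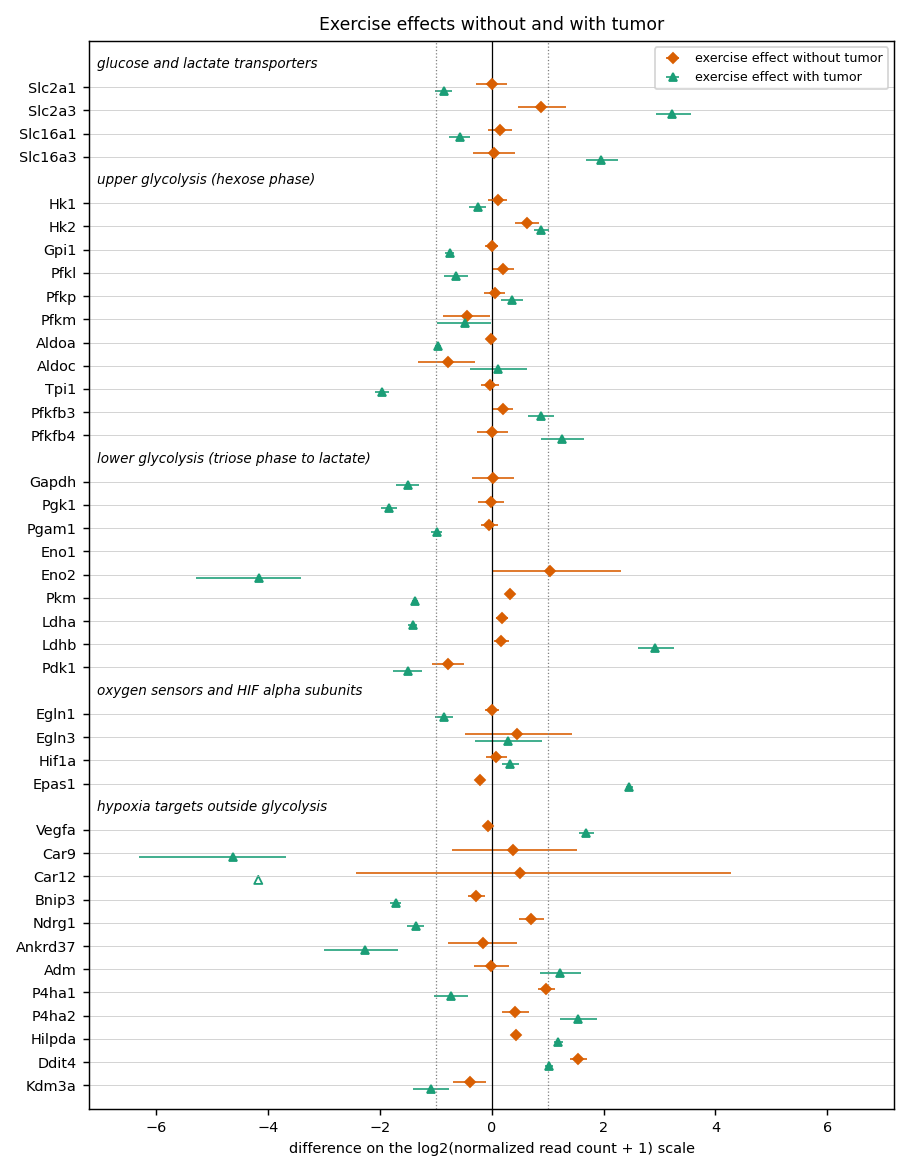
Differences of the log2(normalized read count + 1) values (horizontal axis) for the members by role (vertical axis), for the exercise effect without tumor (orange diamonds) and with tumor (green triangles). Bars are exact 95% intervals of the read ratio, an open symbol marks an interval without a lower end, and dotted lines mark 2-fold. Without tumor, only Ddit4 at 1.54 and Eno2 at 1.05 lie past 2-fold, and with tumor the points spread from -4.62 (Car9) to 3.23 (Slc2a3).

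By the deposited values over the 4 libraries, 22 members were highest in E(-)T(+) and 11 in E(+)T(+). The tumor-free libraries were highest for 3 members each. Among all rows 35.5% were highest in E(-)T(+) and 22.3% in E(+)T(+), and the tumor-free shares were 22.5% at rest and 19.7% after exercise. This tally was not repeated with other scalings. Library totals only shifted the median of all rows by -0.60 for exercise with tumor and -0.41 for tumor in exercised mice. Of the 11, Pfkp, Hif1a, Egln3, Pfkfb3, Pfkfb4 and P4ha2 led the next library by only 0.01 to 0.33, less than these shifts. The plot of levels by library shows the members in order of role.

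**Figure D3:**
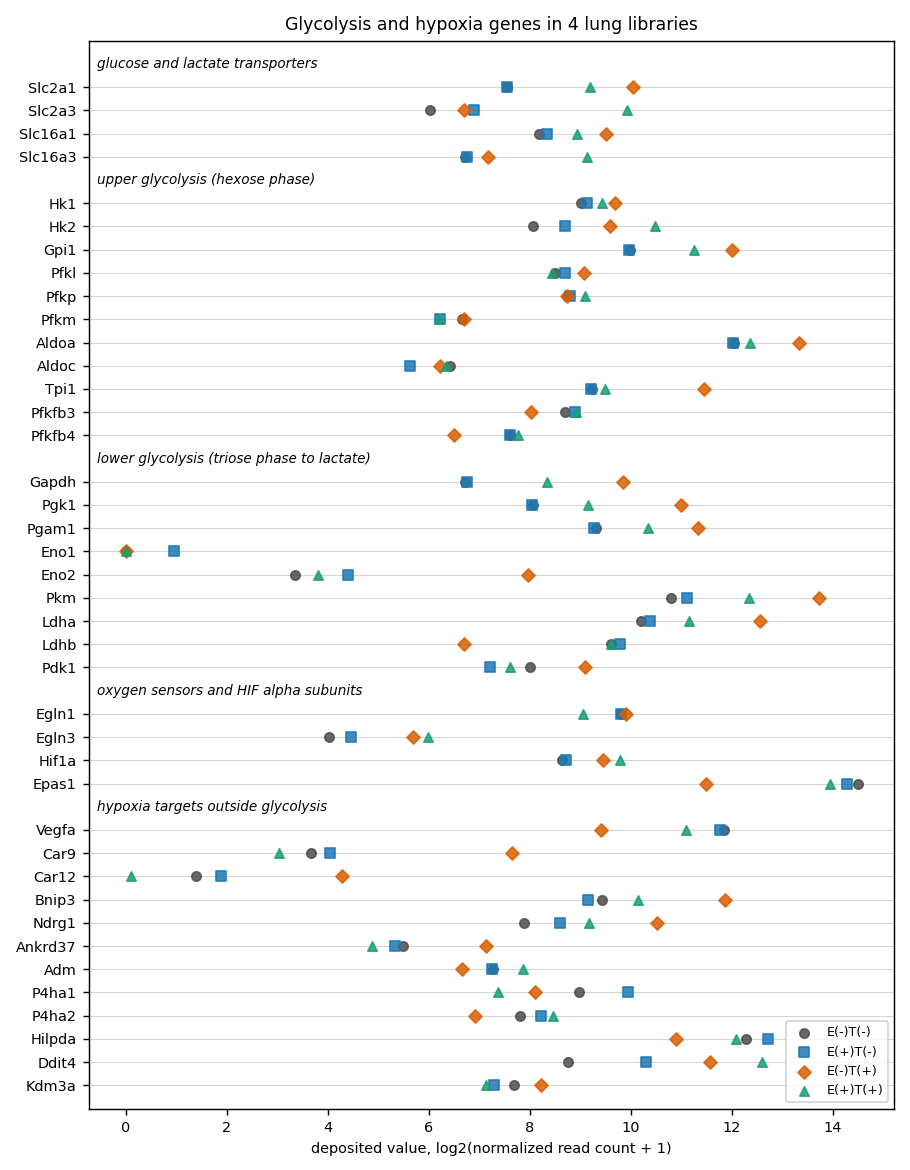
Deposited log2(normalized read count + 1) values (horizontal axis) of the 40 members (vertical axis, by role) in the 4 libraries, 1 symbol per library and no replicates. The orange diamonds of E(-)T(+) lie right of the other libraries for most enzymes from Gapdh to Ldha and left of them for Ldhb, Epas1 and Vegfa.

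Slc2a1 encodes the widely expressed glucose transporter that is a classical HIF target. Its levels were 186, 185.5, 1055 and 580 normalized counts. It was higher with tumor by 2.50 in resting mice (95% interval 2.29 to 2.72) and by 1.64 in exercised mice (1.41 to 1.89). Tumor libraries were thus both above the tumor-free ones. Differences of genes are on the log2(normalized count + 1) scale unless another scaling or pseudocount is named. Intervals are of the read ratio, without a pseudocount, and differences of sums are log2 ratios of the summed counts. The promoter of Slc2a1 is printed because the 5-base core of the hypoxia response element, the sequence HIF binds, was searched in the members' promoters as ACGTG or GCGTG on either strand. These are the 250 bases before the RefSeq start on the plus strand (chr4:119108495-119108744, GRCm38.p6), with cores in capitals.
Slc2a1: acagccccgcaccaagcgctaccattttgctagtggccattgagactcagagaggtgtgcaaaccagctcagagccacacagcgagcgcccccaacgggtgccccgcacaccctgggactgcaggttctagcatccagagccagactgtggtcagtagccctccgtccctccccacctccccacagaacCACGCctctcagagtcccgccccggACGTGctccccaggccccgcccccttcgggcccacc

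Slc2a3, the high-affinity glucose transporter of neurons and leukocytes, was at 63.6, 118, 102 and 963 normalized counts. A single library, E(+)T(+), stood above the other 3. Its difference from E(+)T(-) was 3.01 (2.75 to 3.30) and from E(-)T(+) 3.23 (2.93 to 3.57). Slc16a3, which exports lactate from glycolytic cells, was also highest in E(+)T(+), with 104, 107, 144 and 560 normalized counts and differences of 2.38 and 1.96. The 12 neutrophil markers were likewise highest in E(+)T(+), as a sum, and their part was not tested. Slc16a1, which carries lactate and pyruvate either way, followed Slc2a1 instead, with 289, 321, 723 and 485 normalized counts. It was higher with tumor by 1.32 in resting mice and by 0.60 in exercised mice.

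Of the hexose phase, Hk2, the inducible hexokinase, had 267, 411, 768 and 1414 normalized counts. Its level was higher with tumor by 1.52 in resting and 1.78 in exercised mice, and higher with exercise by 0.62 and 0.88. Hk1, the constitutive hexokinase, varied less (517, 556, 820 and 687). Gpi1, which interconverts glucose and fructose phosphates, had 1004, 1001, 4084 and 2419 normalized counts. With tumor it was higher by 2.02 (1.93 to 2.12) in resting and by 1.27 (1.17 to 1.38) in exercised mice. With the deposited scaling, both tumor libraries were above both tumor-free ones for Hk1, Hk2 and Gpi1. Hk1 had 609, 605, 748 and 588 reads, the fewest in E(+)T(+), the library with the most recovered reads. By library totals only, Hk1 was thus lower in E(+)T(+) than in both tumor-free libraries.

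Aldoa, the main aldolase of muscle and most proliferating cells, was at 4204, 4161, 10200 and 5252 normalized counts, and Tpi1, which interconverts the triose phosphates, at 599, 588, 2777 and 713. Both were highest in E(-)T(+). Aldoa was higher there by 1.28 and Tpi1 by 2.21 than in E(-)T(-). In exercised mice the tumor differences were 0.34 and 0.28, inside the 2-fold limit. An annotation entry of Aldoa overlaps Fam57b over its 3' end and Tpi1 overlaps Spsb2 by 34 bases there, and reads of such pairs may be mixed where counting did not use strand.

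The phosphofructokinase genes, which encode the committing step of glycolysis, were inside 2-fold in every comparison with the deposited scaling. Pfkl had 359, 413, 538 and 345 normalized counts, Pfkp 424, 440, 425 and 545, and Pfkm, the muscle form, 100, 73.5, 102 and 72.5. Library totals only put the exercise difference with tumor past the limit for Pfkl (-1.25) and Pfkm (-1.09). Pfkp overlaps Pitrm1 by 748 bases at its 3' end. Aldoc, the brain aldolase, was also inside 2-fold, at 85.0, 48.7, 73.4 and 79.5. Pfkfb3 and Pfkfb4 encode bifunctional regulators of phosphofructokinase. Pfkfb4 was at 193, 194, 89.9 and 215 and Pfkfb3 at 416, 475, 260 and 477, and each was lowest in E(-)T(+). Pfkfb4 differed by -1.09 (-1.49 to -0.73) with tumor in resting mice and by 1.25 (0.88 to 1.65) with exercise in tumor-bearing mice, and Pfkfb3 by -0.68 and 0.88. The Pfkfb4 values were -0.99 and 0.65 after scaling by library totals only, inside 2-fold. Both are HIF targets in many cells.

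Lower glycolysis was the role with the largest median tumor difference in resting mice, 2.65 over 8 members. In exercised mice its median was 0.92, below the 2.01 of the 4 transporters. Gapdh, which oxidizes glyceraldehyde phosphate, had 104, 107, 912 and 322 normalized counts. The differences with tumor were 3.12 (2.85 to 3.41) and 1.58 (1.27 to 1.92). GAPDH was the reference gene of the study's RT-qPCR. Gapdh has many processed pseudogenes, so the assignment of its reads is uncertain, and it overlaps Iffo1 by 68 bases at its 3' end. Pgk1, the first ATP-forming enzyme of the pathway, was at 266, 264, 2029 and 570 normalized counts, higher with tumor by 2.93 (2.76 to 3.11) and 1.11 (0.90 to 1.33). Pgam1, the phosphoglycerate mutase, was at 632, 613, 2554 and 1287, higher by 2.01 and 1.07. In all 3 genes the tumor-free libraries were nearly equal, E(-)T(+) was highest and E(+)T(+) lay between.

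Pgk1 and Ldha are shown because both are textbook HIF targets and rank among the members with large tumor differences. The printed bases precede the RefSeq starts on the plus strand, at chrX:106186850-106187099 for Pgk1 and chr7:46845554-46845803 for Ldha (GRCm38.p6), with the cores in capitals. Ldha holds cores within CACGTG, a palindrome known as the E-box that other factors such as Myc bind, so those cores are not particular to HIF.
Pgk1: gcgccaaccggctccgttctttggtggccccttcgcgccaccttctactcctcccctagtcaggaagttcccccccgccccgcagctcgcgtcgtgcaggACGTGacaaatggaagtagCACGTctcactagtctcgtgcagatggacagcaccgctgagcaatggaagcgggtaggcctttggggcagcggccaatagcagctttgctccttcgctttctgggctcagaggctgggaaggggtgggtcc
Ldha: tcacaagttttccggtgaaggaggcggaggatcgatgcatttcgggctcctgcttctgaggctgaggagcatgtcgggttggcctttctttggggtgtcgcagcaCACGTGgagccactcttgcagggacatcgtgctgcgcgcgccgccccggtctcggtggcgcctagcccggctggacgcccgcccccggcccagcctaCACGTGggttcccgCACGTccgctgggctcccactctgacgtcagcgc

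Enolase was covered unevenly. Eno1 had 0, 1, 0 and 0 reads and did not pass the filter. Its near-identical copy Eno1b, which was not a member and was looked up after its values were seen, filled 2 rows with 182, 150, 2002 and 498 and with 154, 177, 2182 and 483 normalized counts. How reads were divided between these copies is not known here. Eno2, the neuronal enolase, had few reads outside E(-)T(+), with 9.23, 20.1, 248 and 13.0 normalized counts from 11, 22, 227 and 11 reads. It differed by 4.61 (3.87 to 5.76) with tumor in resting mice but by -0.59 (-1.84 to 0.45) in exercised mice. With exercise in tumor-free mice the difference was 1.05, with an interval of 0.01 to 2.30 that nearly reached 0.

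Pkm, the pyruvate kinase of most adult tissues and tumors, was at 1765, 2218, 13440 and 5173 normalized counts. It was higher with tumor by 2.93 (2.86 to 3.0) and 1.22 (1.15 to 1.29). Ldha, the muscle-type lactate dehydrogenase subunit, had 1172, 1322, 6046 and 2265, higher by 2.37 (2.28 to 2.45) and 0.78 (0.68 to 0.88). Ldhb, the heart-type subunit, had 782, 880, 102 and 777. Ldhb was the one lower glycolysis gene that was lower, by -2.93 (-3.26 to -2.63) with tumor in resting mice, and in exercised mice it differed by -0.18. Only E(-)T(+) stood apart for Ldhb. Pdk1, the kinase that switches off pyruvate dehydrogenase and so limits the conversion of pyruvate to acetyl-CoA, was at 254, 148, 546 and 193 normalized counts. Its tumor differences were 1.10 and 0.38, and its exercise differences were -0.78 and -1.49.

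Among the sensors and HIF subunits, Epas1 had 22980, 19910, 2873 and 15780 normalized counts. It differed by -3.0 (-3.06 to -2.94) with tumor in resting mice and by -0.34 (-0.37 to -0.30) in exercised mice. The endothelial marker sum was likewise lowest in E(-)T(+), and its part in the Epas1 difference was not tested. Hif1a was at 394, 416, 698 and 878, higher with tumor by 0.82 (0.65 to 1.0) and 1.08 (0.91 to 1.25). The latter was 0.66 after scaling by library totals only and 0.99 with totals without hemoglobin genes. Its 3' end overlaps Gm49321, and the reads of this pair cannot be divided here. Egln3, an oxygen sensor that HIF itself induces, had only 18, 23, 46 and 53 reads and was higher with tumor by 1.67 (0.91 to 2.59) and 1.51 (0.82 to 2.33). Egln1, the main oxygen sensor, was level in 3 libraries and lower in E(+)T(+), at 890, 890, 958 and 530 normalized counts.

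Hypoxia targets outside glycolysis were both higher and lower in E(-)T(+). Car9, a tumor-associated carbonic anhydrase that moves acid out of the cell, had 14, 17, 183 and 6 reads. Its normalized counts were 11.8, 15.6, 200.1 and 7.15. The difference with tumor in resting mice was 3.98 (3.29 to 4.97), whereas in exercised mice it was -1.02 with an interval of -2.79 to 0.26 that contained 0. Car12, a related enzyme, had 2, 3, 17 and 0 reads. Against a floor of 3 reads in E(+)T(+), it was at least 5.31-fold lower there than in E(-)T(+), with an upper limit of -1.95 on the log2 scale once the counting error of both libraries is included. Its tumor difference in resting mice was 2.89 with a wide interval of 1.38 to 6.61. In exercised mice both libraries were at or under the floor, so no fold is given. For both genes E(-)T(+) held the most reads by far.

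Bnip3, a mitochondrial protein that triggers mitophagy in hypoxia, was at 690, 570, 3691 and 1119 normalized counts, higher with tumor by 2.42 (2.31 to 2.53) and 0.97 (0.83 to 1.12). Ndrg1, a stress-response gene used as a hypoxia marker, was at 234, 384, 1469 and 572, higher by 2.64 and 0.57. Ankrd37, a small ankyrin repeat protein and HIF target, was at 44.1, 39.5, 139 and 28.2, with differences of 1.63 (1.18 to 2.15) and -0.47 (-1.28 to 0.26). Its 3' end overlaps Ufsp2 by 57 bases. All 3 genes were highest in E(-)T(+) and below it by 2-fold or more in E(+)T(+).

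The promoters of Bnip3, Car9 and Vegfa are set side by side since these targets went in opposite directions in E(-)T(+). They cover chr7:138909507-138909756 (minus strand), chr4:43506776-43507025 (plus strand) and chr17:46032378-46032627 (minus strand) of GRCm38.p6, each read along its gene from 250 bases before the RefSeq start. Capitals mark the core, of which Bnip3 holds 5, Car9 1 and this Vegfa window none. A further Vegfa window, at a downstream start, holds 2 cores, and in Bnip3 a pair of the cores lies on the strands of 1 E-box. These genes do not stand for the members. The core was in 70.8% of 24 windows of members higher with tumor in resting mice and in 83.3% of 6 windows of lower members.
Bnip3: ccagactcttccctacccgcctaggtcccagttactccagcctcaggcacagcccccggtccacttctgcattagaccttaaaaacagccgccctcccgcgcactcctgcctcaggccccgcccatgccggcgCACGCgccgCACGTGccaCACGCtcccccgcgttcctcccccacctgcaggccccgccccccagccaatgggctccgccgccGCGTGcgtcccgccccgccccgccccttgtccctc
Car9: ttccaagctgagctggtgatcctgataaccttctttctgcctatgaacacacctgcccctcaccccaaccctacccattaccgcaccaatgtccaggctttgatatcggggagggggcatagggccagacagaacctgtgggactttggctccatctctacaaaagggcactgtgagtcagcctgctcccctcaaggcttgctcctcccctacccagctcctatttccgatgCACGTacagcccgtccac
Vegfa: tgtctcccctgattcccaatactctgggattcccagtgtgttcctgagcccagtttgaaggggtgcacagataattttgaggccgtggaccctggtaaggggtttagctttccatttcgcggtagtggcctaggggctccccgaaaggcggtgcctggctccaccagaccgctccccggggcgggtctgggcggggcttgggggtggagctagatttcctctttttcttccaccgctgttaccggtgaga

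Vegfa, the vessel growth factor that alveolar epithelium makes in quantity, was at 3640, 3474, 674 and 2182 normalized counts. It differed by -2.43 (-2.56 to -2.31) with tumor in resting mice and by -0.67 (-0.75 to -0.59) in exercised mice. Hilpda, a lipid droplet protein that blocks triglyceride breakdown in hypoxia, was at 4990, 6699, 1901 and 4344, with differences of -1.39 and -0.62. For both genes the E(-)T(+) library was the lowest. The alveolar type 1 and type 2 marker sums were also lowest in that library, and their part was not tested. Adm, the vasodilator peptide adrenomedullin, was at 153, 152, 99.8 and 233, inside 2-fold with tumor but 1.21 (0.86 to 1.60) higher with exercise in tumor-bearing mice. The same exercise difference was 1.19 for Hilpda, and library totals only put Adm at 0.61 and Hilpda at 0.58.

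Ddit4, an inhibitor of mTOR induced by hypoxia, energy stress and glucocorticoids, was the only member past 2-fold in all 4 comparisons. Its levels were 431, 1256, 3035 and 6173 normalized counts, higher in each library of this order than in the one before. Exercise differences were 1.54 (1.40 to 1.69) without tumor and 1.02 (0.96 to 1.09) with tumor, and tumor differences were 2.81 (2.68 to 2.96) and 2.30 (2.21 to 2.38). The exercise difference with tumor was 0.42 after scaling by library totals only and 0.94 with totals without hemoglobin genes, inside 2-fold. Among all rows 1.81% were higher by 2-fold or more in both exercise comparisons. The 250 bases before its start (chr10:59951771-59952020, minus strand, GRCm38.p6) are given with the cores in capitals.
Ddit4: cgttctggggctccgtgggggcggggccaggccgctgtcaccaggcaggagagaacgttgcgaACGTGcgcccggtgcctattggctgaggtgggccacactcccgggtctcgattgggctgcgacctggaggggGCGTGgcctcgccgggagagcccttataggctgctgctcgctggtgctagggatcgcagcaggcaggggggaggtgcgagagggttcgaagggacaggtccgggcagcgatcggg

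The collagen prolyl hydroxylase subunits P4ha1 and P4ha2 differed from each other. P4ha1 was at 500, 983, 273 and 165 normalized counts, the member with the lowest tumor difference in exercised mice, -2.57 (-2.84 to -2.32), and -0.87 in resting mice. P4ha2 was at 221, 296, 120 and 349, with tumor differences of -0.88 and 0.24. Its exercise difference with tumor was 1.54, or 0.94 after scaling by library totals only. The fibroblast marker sum, which includes collagen genes, was 11460, 11040, 40080 and 18220, and its part in these differences was not tested. Kdm3a, a histone demethylase and HIF target, was at 204, 155, 296 and 139, with tumor differences of 0.53 and -0.16 and an exercise difference of -1.08 (-1.41 to -0.77) in tumor-bearing mice.

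Ratios of paired genes within a library do not depend on how libraries were scaled. There were 11 pairs with enough reads. The reads of Ldha were 1.499, 1.503, 59.3 and 2.91 times those of Ldhb. This log2 ratio, 0.58, 0.59, 5.88 and 1.54, moved by 5.29 with tumor in resting mice and by 0.95 in exercised mice. For Epas1 over Hif1a it was 5.86, 5.58, 2.04 and 4.17, so that the alpha subunits came closest in E(-)T(+). Slc2a3 over Slc2a1 was -1.53, -0.64, -3.36 and 0.73, and Slc16a3 over Slc16a1 was -1.47, -1.58, -2.32 and 0.21. Both transporter ratios were above 0 in E(+)T(+) only, and Slc2a3 over Slc2a1 was also higher in E(+)T(-) than in E(-)T(-). Hk2 over Hk1 was -0.95, -0.43, -0.09 and 1.04, and P4ha2 over P4ha1 was -1.17, -1.73, -1.18 and 1.08. Egln3 over Egln1 was -5.78, -5.34, -4.22 and -3.08. Of the remaining pairs, Aldoa over Aldoc moved most with tumor, by 1.49 in resting mice.

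**Figure D4:**
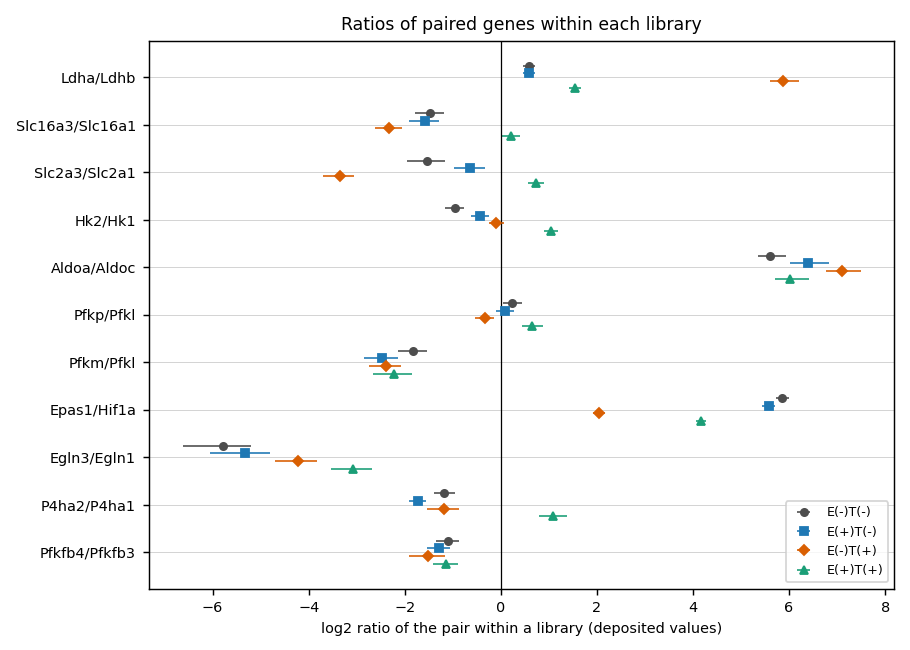
Log2 ratio of the deposited values of 11 gene pairs (vertical axis) within each of the 4 libraries (horizontal axis, log2 scale), with exact 95% intervals for counting error as bars. The Ldha/Ldhb ratio of E(-)T(+), 5.88, lies far right of the other 3 libraries, and the Slc2a3/Slc2a1 ratio is above 0 only in E(+)T(+).

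Summed over roles, the glycolytic enzymes of both phases, with the regulators Pfkfb3, Pfkfb4 and Pdk1, took 0.119%, 0.119%, 0.449% and 0.146% of the reads. The transporter sum was 642, 731, 2023 and 2588 normalized counts, highest in E(+)T(+), and 0.0197% of all reads in E(-)T(+) against 0.0166% in E(+)T(+). Of the reads outside hemoglobin genes it took 0.02% and 0.0242%, so the order of these libraries depended on the scaling. Upper glycolysis summed to 8168, 8361, 20130 and 12220, and lower glycolysis to 4984, 5573, 25870 and 10600. In both phases E(-)T(+) was highest and E(+)T(+) second. Hypoxia targets summed to 11120, 14030, 11920 and 15310, mostly from Hilpda, Vegfa, Ddit4 and Bnip3. Sensors and HIF subunits summed to 24280, 21230, 4579 and 17250, most of it from Epas1. Beside these, macrophage marker sums were 13010, 13470, 18250 and 13390, skeletal muscle sums 237, 160, 202 and 408, and erythroid sums 1590000, 1668000, 146900 and 4931000.

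**Figure D5:**
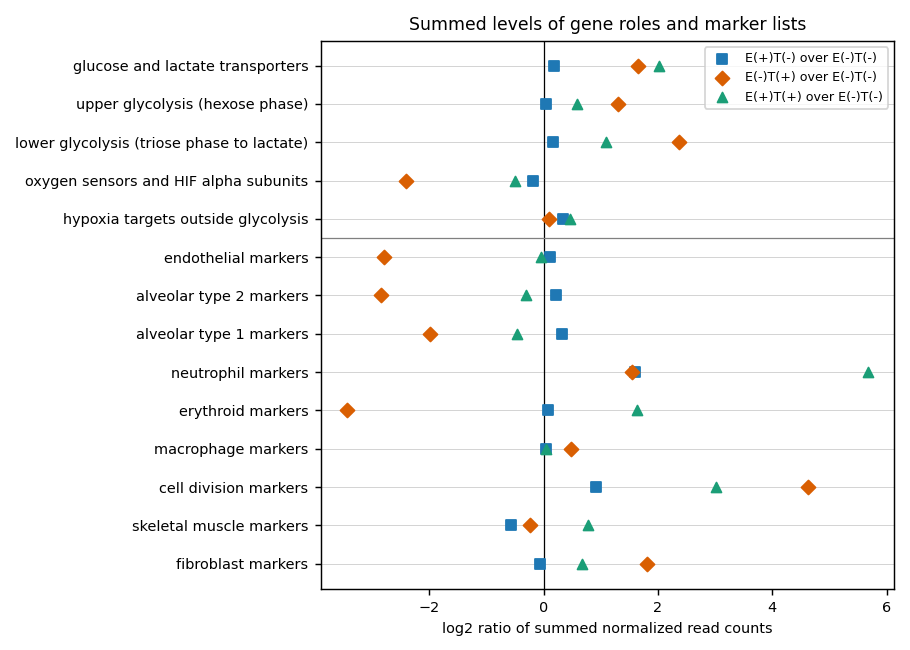
Log2 ratios (horizontal axis) of summed normalized read counts in the other 3 libraries over E(-)T(-), for the 5 roles of the members and for the marker lists (vertical axis). The lower glycolysis sum is 2.38 higher in E(-)T(+), where that of the endothelial markers is -2.80, and neutrophil markers lie farthest right in E(+)T(+).

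An additive model over the 4 libraries, with exercise and tumor as factors, takes the departure from additivity as the error and leaves 1 residual degree of freedom. With limma and Benjamini-Hochberg adjustment over all 15164 rows, 4 members were called for tumor, all higher, namely Ddit4 (adjusted p = 0.00895), Slc2a1 (0.0298), Gapdh (0.0301) and Pgk1 (0.0403). With median-of-ratios size factors 3 of these were called and Pgk1 was not. Of all rows past the filter 3.26% were called, 1.89% higher and 1.38% lower. Without the count filter 15 members were called, 12 higher and 3 lower (P4ha1, Vegfa and Ldhb), beside 1284 rows in place of 495. At an unadjusted p under 0.05 there were 19 members beside 17.8% of all rows. For exercise no member and 0% of all rows were called in either direction by limma, and 4 members and 4.97% of rows had an unadjusted p under 0.05. Without the count filter, no member and 58 rows were called for exercise, and 7 members beside 1233 rows had an unadjusted p under 0.05. Ddit4, Slc2a1, Gapdh and Pgk1 were higher in both tumor comparisons, with mean tumor differences of 2.56, 2.07, 2.35 and 2.02 in that order. Ldhb and Epas1, past 2-fold with tumor in resting mice only, were not called with the count filter. In this model a tumor difference that is unlike in resting and exercised mice enters the error, so this outcome was favored by the model. Its p-values reflect how alike the tumor differences were and do not measure spread between animals.

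Other genes of the pathway were read the same way, against the 20.6% of all rows higher and 25.7% lower with tumor in resting mice and the 14.9% and 13% in exercised mice. Of 16 other glycolytic isoforms past the filter, 3 were higher and 7 lower with tumor in resting mice and 8 were higher and none lower in exercised mice. Adpgk, an ADP-dependent glucokinase, had 99.3, 95.5, 454 and 223 normalized counts, and Eno3, the muscle enolase, 42.4, 40.4, 162 and 87.7. Bpgm, which makes the bisphosphoglycerate that loosens oxygen from hemoglobin in red cells, had 1084, 1012, 170 and 4475 and was lowest in E(-)T(+) and highest in E(+)T(+), as was the erythroid sum. In the pentose phosphate pathway, 1 of 7 genes (Pgls, 1.42) was higher with tumor in resting mice and 3 in exercised mice (G6pdx 1.18, Pgd 1.15 and Taldo1 1.01). None was lower.

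Of 12 genes that carry pyruvate into mitochondria or control pyruvate dehydrogenase, 3 were higher with tumor in resting mice (Pdp1 1.53, Pdk3 1.05 and Dlat 1.01) and 2 lower. Pdk2 at -1.47 was one of these, with 287, 236, 103 and 160 normalized counts. In exercised mice none was higher and 1 was lower. Gluconeogenesis had 1 gene higher and 3 lower of 6 with tumor in resting mice, and 1 higher and 1 lower in exercised mice. The higher gene was Fbp1 in both, with only 0, 5, 7 and 11 reads, and its interval in exercised mice contained 0. Those lower in resting mice were Pcx at -1.09, Fbp2 at -1.22 and Pck1 at -2.44. Pck1, with 103, 4, 14 and 0 reads, was the lower gene in exercised mice, where 4 reads against none were only 1.05-fold apart at the floor of 3 reads. Fbp1 and Pck1 were under the level set for naming and were added after their values were seen.

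Of 13 other HIF pathway regulators, 2 were higher and 1 lower with tumor in resting mice, and 1 higher and 2 lower in exercised mice. Cited2, which competes with HIF for its coactivators, was higher by 1.20, and Hif1an, the asparagine hydroxylase that blocks HIF, differed by -1.11 in resting and -1.19 in exercised mice, at 394, 554, 182 and 242 normalized counts. Vhl, whose product marks HIF alpha for degradation, was at 375, 380, 346 and 276. A further list of 29 hypoxia targets past the filter was divided as well, with 8 higher and 5 lower in resting and 6 and 6 in exercised mice. Hmox1, the heme oxygenase, was at 23.7, 72.5, 208 and 219, Plod1, a collagen lysyl hydroxylase, at 196, 340, 743 and 329, and Lox, a collagen crosslinking enzyme, at 268, 380, 489 and 1789. On the lower side in resting mice were Ppp1r3c, a glycogen-targeting phosphatase subunit at 287, 260, 1.16 and 25.9, and Edn1, a vasoconstrictor peptide, at 467, 782, 174 and 1131. Lox was higher by 2.23 with tumor in exercised mice. The median over this list was 0.59 in resting and 0.07 in exercised mice.

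The hypoxia response core was counted in RefSeq windows from 250 bases before to 50 bases after each start. Windows were found for 37 members, 54 windows in all, and 33 members held at least 1 core. This count per gene was not made for all genes, and a gene with more windows has more places for a core. Known hypoxia targets were among the chosen members, so the shares here are not independent of that choice. The core was in 77.8% of the members' windows and in 43.8% of all 32851 windows. Among windows of at least 60% GC, these shares were 90% and 69.2%. By direction of the tumor difference in resting mice, the core was in 70.8% of 24 windows of higher members, 83.3% of 6 windows of lower members and 81% of 21 windows of members inside 2-fold. Windows of 1 gene can overlap. The E-box CACGTG was in 11.1% of the members' windows and 7.15% of all windows. Slc2a3, Ndrg1 and Epas1 had no window in the table.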

How the data were processed

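Lung RNA was measured in 4 libraries, 1 per group, from total RNA with a QuantSeq 3' mRNA-Seq kit, which reads transcript ends rather than whole transcripts. Reads were mapped by the authors with Bowtie2 (mm10, per the submitters' processing notes), counted with bedtools coverage and normalized with the quantile method of edgeR. Versions and the use of strand are not given in the sources used here. Deposited log2 values, made by the authors, equal log2(normalized read count + 1) and have 3 decimals. Whole reads were recovered by inverting a negative binomial quantile adjustment (fitted dispersion 0.372), which returned 100% of the values within 0.001. Read recovery, 2-fold calls and the limma fit were tested on simulated data. The simulation had counting error only, few changed genes, equal tumor effects at rest and with exercise, no exercise effect and no spread between animals. It therefore does not tell how reliable the limma calls are in these data.

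Differences were taken between deposited values, so they carry a pseudocount of 1 and understate changes of low genes. A gene was called past the limit at 2-fold, among rows whose mean normalized count was 4 or more. With 1 library per group, no single comparison could be tested, and the additive model described here was the only test. Exact (Clopper-Pearson) 95% intervals of read ratios cover counting error only, because they use the read counts of 1 library per group. Amplified copies were not marked by molecular identifiers, so copies count as separate reads and the intervals may be too narrow. The floor of 3 reads was 0.23, 0.235, 0.321 and 0.224 CPM, in the order used for all values. The additive model used limma 3.58.1 (R 4.3.3; eBayes with trend, adjusted p under 0.05) across all genes. Python 3.11.15 with scipy 1.17.1 was used elsewhere. Coordinates and gene overlaps came from GENCODE M21 and promoters from RefSeq, both on GRCm38.

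All members are named in order of role, with full values for those past 2-fold whose mean normalized count was 50 or more, and lower ones with their reads. Of each further list, at most 3 genes in each direction were to be named. Members, roles, pairs and lists were chosen with earlier results of these data known. Alternatives were other filters, a pseudocount of 4, a 1.5-fold limit, and scaling by library totals, by totals without hemoglobin genes or by median-of-ratios size factors. Ly6g and Ahsp of the marker lists were not found in the table.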

Additional observations from a re-analysis of the deposited data

Results flagged for a closer look

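Car9 had opposite tumor effects, with a log2 difference of 3.98 in resting mice and -1.02 in exercised mice. It rests on 14, 17, 183 and 6 reads in resting and exercised tumor-free and in resting and exercised tumor-bearing lung. The interval of the second difference contained 0 (-2.79 to 0.26), and the difference between the effects was not tested.

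Eno2 had opposite exercise effects, 1.05 without tumor and -4.16 with tumor, from 11, 22, 227 and 11 reads in the same order. The interval of the first, 0.01 to 2.30, nearly contained 0, and the difference was 0.87 with a pseudocount of 4. This difference between effects was not tested either. Both genes had most of their reads in E(-)T(+).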

How the results depend on the processing

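No paired analysis was possible because each group has 1 library and the labels give no replicate numbers, and for the same reason no library could be left out. Of 60 differences past 2-fold of members with a mean of at least 50 normalized counts (Car12 and Egln3 are below it), none changed sign under another scaling or a pseudocount of 4. Scaling by totals alone put 12 of them inside 2-fold, totals without hemoglobin genes 4, the pseudocount 2 and median-of-ratios size factors 0. Other member differences went past 2-fold, 12 with totals alone (9 for exercise with tumor and 3 for tumor in exercised mice, all lower), 2 with totals without hemoglobin genes (Aldoa -1.04 and Pgam1 -1.07) and 1 with median-of-ratios size factors (Pgam1 -1.01), these 3 for exercise with tumor.

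For exercise without tumor, the number of higher members went from 2 to 1 with a mean of at least 100 normalized counts, with a pseudocount of 4, with totals alone and with totals without hemoglobin genes. In that order, 158 of 9396, 528 of 15164, 714 of 15161 and 702 of 15154 rows were higher, beside 800 of 15164 in the main setting. A 1.5-fold limit gave 6 higher and 2 lower, beside 1685 and 1730 of all 15164 rows. The other lower counts at 1.5-fold were 9 (tumor, resting), 20 (exercise with tumor) and 7 (tumor, exercised), beside 5232, 4384 and 3733 rows. At a mean of at least 100 the median tumor difference in resting mice was 0.75. Of the 32 members left there, 1 was lower with tumor in exercised mice, beside 765 of 9396 rows. With a pseudocount of 4 it was 1 of 39 members, beside 1740 of 15164 rows.

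Totals alone gave 5 higher and 22 lower members and a median of -1.25 for exercise with tumor, beside 2450 and 5409 of 15161 rows. For tumor in exercised mice they gave 7 higher and 6 lower, beside 1418 and 3684 rows, and a median of -0.08, of opposite sign to the main 0.34, while the median of all rows shifted to -0.41. Summed roles under totals alone and under totals without hemoglobin genes had these tumor differences in resting mice: upper glycolysis 1.41 and 1.21, lower glycolysis 2.49 and 2.28, sensors -2.30 and -2.50, hypoxia targets 0.21 and 0.01. In exercised mice they were 0.13 and 0.46, 0.51 and 0.84, -0.71 and -0.39, and -0.29 and 0.04, and transporters were at 1.41 under totals alone. Hypoxia targets there changed sign from 0.13 to -0.29. By construction, totals alone let the 31.4% hemoglobin share of E(+)T(+) press on its other genes. Without a filter, 15 members were called for tumor in the additive fit in place of 4, while the rows called went from 495 to 1284, and the cause was not tested. Median-of-ratios size factors gave 3 members, without Pgk1, and 331 rows. Gene pair ratios moved less than their counting intervals with either alternative.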
